A study of Homo sapiens with 6 samples.

Results

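Of 20514 rows in a gene-level RNA-seq table of A172 cells, 3 were followed across the knockdown groups. They were the rows whose lists of UCSC hg19 transcript IDs hold uc003lug.4, uc002vfa and uc001iou. The uc003lug.4 row was selected on its read count, as the most abundant row of every library, so its rank is a description and not a result. The other two were picked by identity. All 3 IDs were found, each in a single row: uc003lug.4 in a row of 2 transcripts, uc002vfa (version 3) in a row of 17, and uc001iou (version 2) alone in its row. All 3 rows had enough reads to be tested, as did 14711 rows in all.

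The rows were put forward as extracellular matrix and cytoskeleton genes, under the symbols SPARC, FN1 and VIM in the order of the IDs. None of the annotation tables used here pairs these IDs with a symbol, so the naming was not checked and the values below are given by ID. The RefSeq table of assembly GRCh38.p14 lists 3 transcripts for SPARC, 18 for FN1 and 1 for VIM, beside the 2, 17 and 1 transcripts of the rows. A transcript number does not identify a gene. As background on the proposed names, SPARC is a secreted glycoprotein that binds collagen and modulates how cells attach to matrix. Fibronectin, the product of FN1, is a matrix glycoprotein that integrins bind and that cells assemble into fibrils. Vimentin is the intermediate filament protein typical of mesenchymal cells. All of these proteins are known from cultured glioblastoma cells.

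A172 is an established human glioblastoma line. Cells were transfected with a control siRNA (siControl), with an siRNA against ADAR1 (siADAR1), or with siRNAs against ADAR1 and Staufen1 (siADAR1 and siStaufen1, called the double knockdown below), and 2 libraries, a and b, were sequenced per group. ADAR1 edits double-stranded RNA by turning adenosine into inosine. Staufen1 binds RNA duplexes and takes part in a pathway of mRNA decay. The treatment text, shared by all 6 libraries, adds that a plasmid for HA-tagged STAU1 was transfected the next day and leaves the Staufen1 siRNA unmentioned, so the groups follow the transfection labels. The levels of ADAR1 and Staufen1 transcripts were not analysed here, because the rows carry no gene names. For the same reason the markers of the cell line could not be checked. No group with the Staufen1 siRNA alone was analysed here.

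The libraries held 20291057 to 29508632 estimated reads. The 100 most abundant rows of each library together held 31.0% ± 0.509 in siControl, 25.1% ± 0.0189 in siADAR1 and 27.3% ± 0.259 of the reads in the double knockdown (SD, n = 2 each). Levels are given on 2 scales. The first is the share of all reads in the library. The second is CPM after scaling with TMM factors (TMM CPM), which set the libraries level over the bulk of the rows and so allow for a few rows taking a large part of the reads. Neither scale is per transcript length, so the 3 rows are compared with each other only by how their ratios change between groups. A bulk level does not tell more RNA per cell from more cells that express it. The labels do not state whether the libraries of a group were separate cultures, and the spread behind each p-value may therefore be technical.

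The uc003lug row lost reads with the ADAR1 siRNA and stayed below siControl when the Staufen1 siRNA was added. It took 5.43% (replicate a) and 4.92% (replicate b) of all reads in siControl, 3.60% and 3.59% in siADAR1, and 3.61% and 3.77% in the double knockdown. Both siControl libraries lay above the other 4, and the siControl replicates were also the farthest apart. The row held 884794 to 1217448 reads per library, so counting error was small: the exact Clopper-Pearson 95% interval of a share was 5.42% to 5.44% in siControl replicate a, the widest, and 3.58% to 3.60% in siADAR1 replicate b, the narrowest. These intervals cover counting error only.

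The next row in the order of reads marks the edge of the choice of uc003lug. In siControl, uc003lug had 3.03 and 2.83 times the reads of the second most abundant row. This ratio was 2.0 and 1.97 in siADAR1 and 1.56 and 1.65 in the double knockdown. The lead of uc003lug over the second row was therefore smaller in all 4 knockdown libraries than in both siControl libraries. The second row was taken in each library separately and was not identified, so the ratio also moves with that row. It was lower in the double knockdown than in siADAR1, although the mean share of uc003lug was not (3.69% against 3.59%).

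On the TMM scale the uc003lug row stood at 61218 and 54604 CPM in siControl, 32602 and 32718 CPM in siADAR1, and 35373 and 37240 CPM in the double knockdown. The 3 groups did not overlap. With siADAR1 it fell by 0.83 on the log2 scale (SE 0.056), a 1.77-fold lower level, adjusted p = 1.19e-07 (edgeR quasi-likelihood F test, adjusted by Benjamini-Hochberg over all rows). In the double knockdown it was lower than siControl by a log2 fold change of -0.67 (SE 0.056), or 1.60-fold, adjusted p = 1.13e-06 (edgeR). The falls also passed when scaled to library totals, at -0.53 and -0.49. The level of siControl rests on replicates that differed: without replicate a the siADAR1 change was -0.75, and without replicate b it was -0.91.

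Between the double knockdown and siADAR1 the uc003lug difference was small. The log2 fold change was 0.15 (SE 0.055), adjusted p = 0.0427 (edgeR). Leaving out any 1 of the 4 libraries compared ended this call, with log2 fold changes of 0.11 to 0.19 and adjusted p-values of 0.0662 to 0.289 in the edgeR fit. It held without either siControl library, in a fit of only the 4 libraries compared (0.15, adjusted p = 0.00450, edgeR) and with limma-voom (0.15, adjusted p = 0.0242). DESeq2 gave 0.16 with an adjusted p of 0.0691, and scaling to library totals gave a log2 fold change of 0.04 adjusted p = 0.549 (edgeR).

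The uc003lug row alone made up a sizeable part of the change in how concentrated the reads were. Its share differed from siControl by -1.58 percentage points with siADAR1, where that of the 100 most abundant rows together differed by -5.86 points, so that 27.0% of the latter lay in this row. In the double knockdown the differences were -1.49 and -3.64 points, or 40.8%. Without uc003lug, the rest of the 100 rows still took 25.8% ± 0.149 of the reads in siControl, 21.5% ± 0.0139 in siADAR1 and 23.6% ± 0.149 in the double knockdown (SD, n = 2 each). The concentration thus differed between the groups in the other abundant rows as well.

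The uc002vfa row fell with siADAR1 on the TMM scale and stood clearly higher in the double knockdown than in siADAR1. It was a row of moderate abundance, with 1224 and 1341 reads in siControl, 1283 and 1538 in siADAR1, and 1777 and 2065 in the double knockdown. Among all rows it ranked 2743 and 3032 in siControl, 3735 and 3660 in siADAR1, and 2605 and 2564 in the double knockdown. The ranks were thus lowest in siADAR1 and highest in the double knockdown, with no overlap between groups.

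As a share of all reads, uc002vfa took 0.00603% and 0.00542% in siControl, 0.00510% and 0.00521% in siADAR1, and 0.00725% and 0.00733% in the double knockdown. The exact 95% intervals were 0.00570% to 0.00638% and 0.00513% to 0.00572% for the siControl libraries, and 0.00483% to 0.00539% and 0.00495% to 0.00548% for the siADAR1 libraries. The siControl replicate b and both siADAR1 libraries were therefore not told apart by counting error alone on this scale. The intervals of the double knockdown, 0.00691% to 0.00759% and 0.00702% to 0.00765%, lay above those of the other 4 libraries.

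On the TMM scale uc002vfa stood at 68.0 and 60.1 CPM in siControl, 46.3 and 47.5 CPM in siADAR1, and 71.0 and 72.5 CPM in the double knockdown. The siADAR1 libraries were the lowest, and the double knockdown libraries lay just above siControl. With siADAR1 it fell by 0.45 on the log2 scale (SE 0.073), 1.36-fold, adjusted p = 0.000193 (edgeR). That call depended on the scaling: with library totals the log2 fold change was -0.15 adjusted p = 0.0793 (edgeR).

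Adding the Staufen1 siRNA went with a higher uc002vfa level. Against siADAR1 the log2 fold change was 0.61 (SE 0.072), 1.53-fold, higher in both libraries, adjusted p = 3.59e-05 (edgeR). With library totals it was 0.50, adjusted p = 0.000182 (edgeR). Of all rows tested, 9.98% had a larger log2 fold change in this comparison.

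Against siControl, the double knockdown level of uc002vfa did not pass the test, with a log2 fold change of 0.17 (SE 0.072), adjusted p = 0.0720 (edgeR). It passed with library totals, at 0.35 adjusted p = 0.00130 (edgeR). It also passed without siControl replicate a, at 0.24 with an adjusted p of 0.00987, whereas without siControl replicate b the value was 0.06. A missed threshold does not show that the row had returned to its siControl level.

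The uc001iou row changed least of the 3 with siADAR1 on the TMM scale, whereas with library totals uc002vfa changed least, and it stood higher in the double knockdown on both. It had 45992 and 56152 reads in siControl, 67916 and 79367 in siADAR1, and 78528 and 81811 in the double knockdown. It moved up the order of rows. Its rank was 41 in both siControl libraries, 20 in both siADAR1 libraries, and 15 and 17 in the double knockdown.

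The uc001iou row took 0.227% of all reads in each siControl library, 0.270% and 0.269% in siADAR1, and 0.320% and 0.290% in the double knockdown. The groups did not overlap, and the exact 95% intervals, from 0.225% to 0.229% at the lowest library and from 0.318% to 0.323% at the highest, were narrow beside the differences. The double knockdown replicates were the farthest apart. Part of any share is set by the other rows, so the share was also taken of the reads outside the 3 rows. It was then 0.240% ± 0.00068 in siControl, 0.280% ± 0.00085 in siADAR1 and 0.318% ± 0.022 in the double knockdown (SD, n = 2 each), in the same order.

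On the TMM scale uc001iou stood at 2556 and 2519 CPM in siControl, 2449 and 2452 CPM in siADAR1, and 3139 and 2872 CPM in the double knockdown. The siADAR1 libraries lay slightly below siControl, whereas by share of reads they lay above it. For siADAR1 against siControl the log2 fold change was -0.05 (SE 0.053), adjusted p = 0.433 (edgeR). With library totals it was 0.25 (SE 0.051) adjusted p = 0.00134 (edgeR), so the direction of this difference depended on the scaling.

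In the double knockdown uc001iou rose on both scales. Against siControl the log2 fold change was 0.24 (SE 0.053), 1.18-fold, adjusted p = 0.00207 (edgeR), and 0.43 with library totals. Against siADAR1 it was 0.29 (SE 0.053), 1.23-fold, adjusted p = 0.000866 (edgeR), and 0.18 with library totals. Both libraries were higher in both comparisons. The size of the rise depended on the double knockdown replicate. Without replicate a the TMM log2 fold changes were 0.18 against siControl and 0.23 against siADAR1, and without replicate b they were 0.29 and 0.35.

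**Figure D1:**
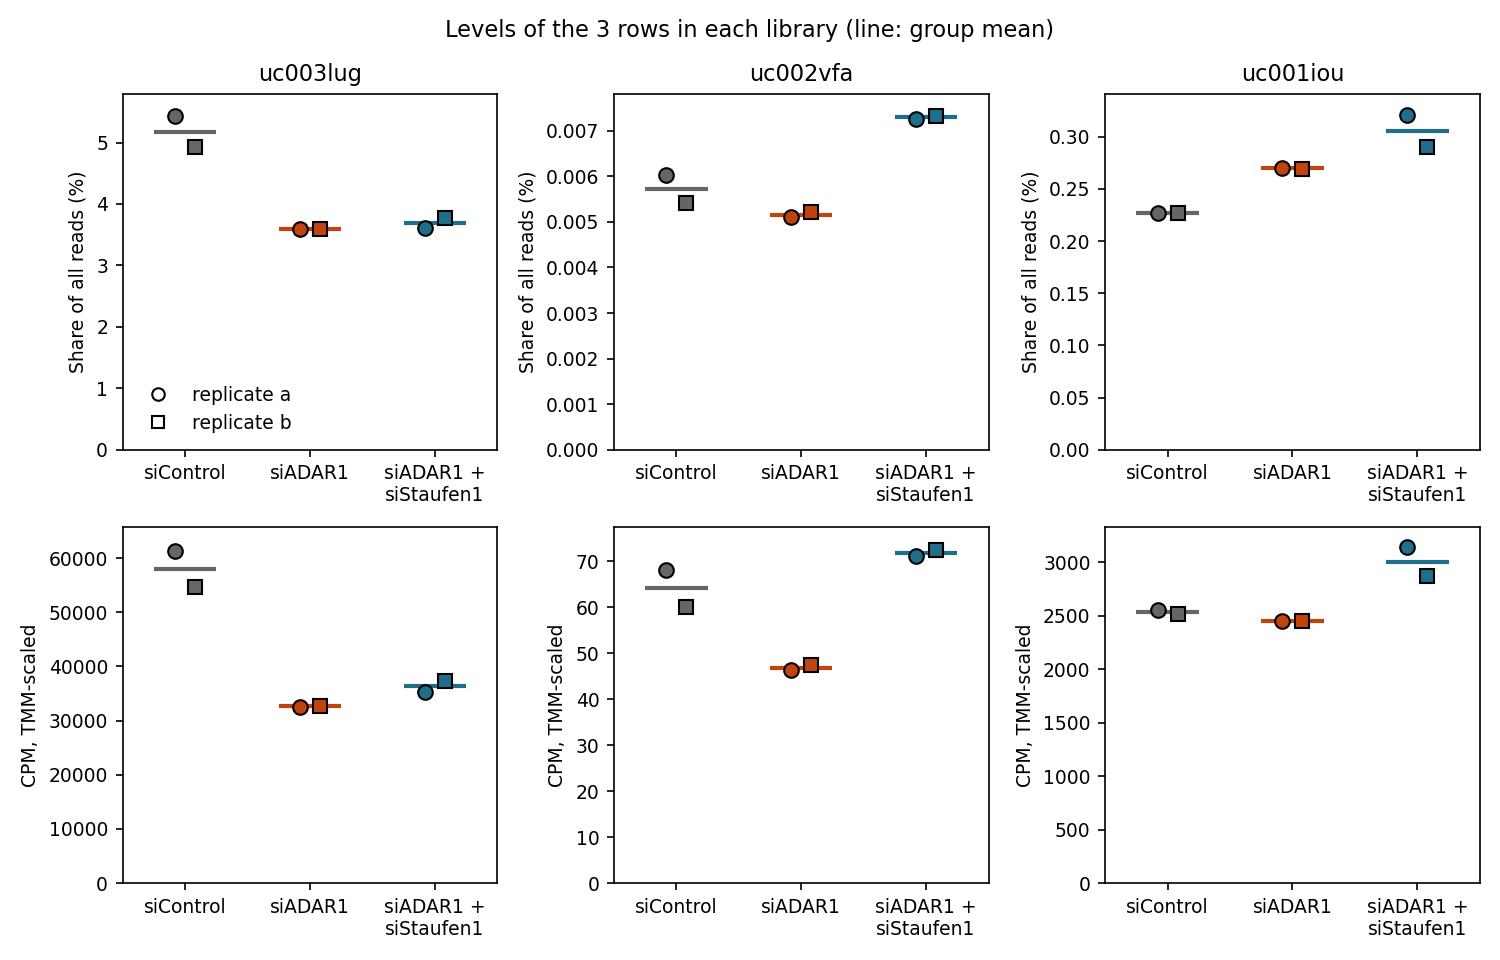
Levels of the 3 rows by library. The upper panels plot the share of all reads in percent and the lower panels TMM-scaled CPM, each from 0, for siControl, siADAR1 and siADAR1 with siStaufen1; circles are replicate a, squares replicate b and lines group means. The uc003lug points are highest in siControl on both scales, the uc002vfa points are lowest in siADAR1, and the uc001iou points of siADAR1 lie above siControl as shares (0.270% and 0.269% against 0.227%) but not as TMM CPM.

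Ratios of reads between rows within a library do not depend on how libraries are scaled, and transcript length drops out when the same ratio is compared between groups. The reads of uc003lug were 23.95 and 21.7 times those of uc001iou in siControl, 13.3 times in each siADAR1 library, and 11.3 and 13.0 times in the double knockdown. On the log2 scale the ratio was 4.51 ± 0.10, 3.74 ± 0.0022 and 3.60 ± 0.14 in the same order (SD, n = 2 each). All 4 knockdown libraries were below both siControl libraries. The double knockdown libraries were also both below the siADAR1 libraries, and that gap was about the spread of the double knockdown and far larger than that of siADAR1.

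The reads of uc003lug were 900.03 and 908 times those of uc002vfa in siControl, 705 and 689 times in siADAR1, and 498 and 514 times in the double knockdown. The log2 ratios were 9.82 ± 0.0089, 9.44 ± 0.024 and 8.98 ± 0.032 (SD, n = 2 each). This ratio was lower in siADAR1 than in siControl and lower again in the double knockdown, and each step was larger than the spread within the groups. The siControl replicates, which differed in the level of both rows, had nearly the same ratio between them.

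The reads of uc001iou were 37.6 and 41.9 times those of uc002vfa in siControl, 52.9 and 51.6 times in siADAR1, and 44.2 and 39.6 times in the double knockdown. The log2 ratios were 5.31 ± 0.11, 5.71 ± 0.026 and 5.39 ± 0.11 (SD, n = 2 each). Only siADAR1 stood apart here, while the siControl and double knockdown libraries overlapped. No test of the shares or ratios was run. At this group size the smallest p of the exact permutation test (two-sided) is 0.33.

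**Figure D2:**
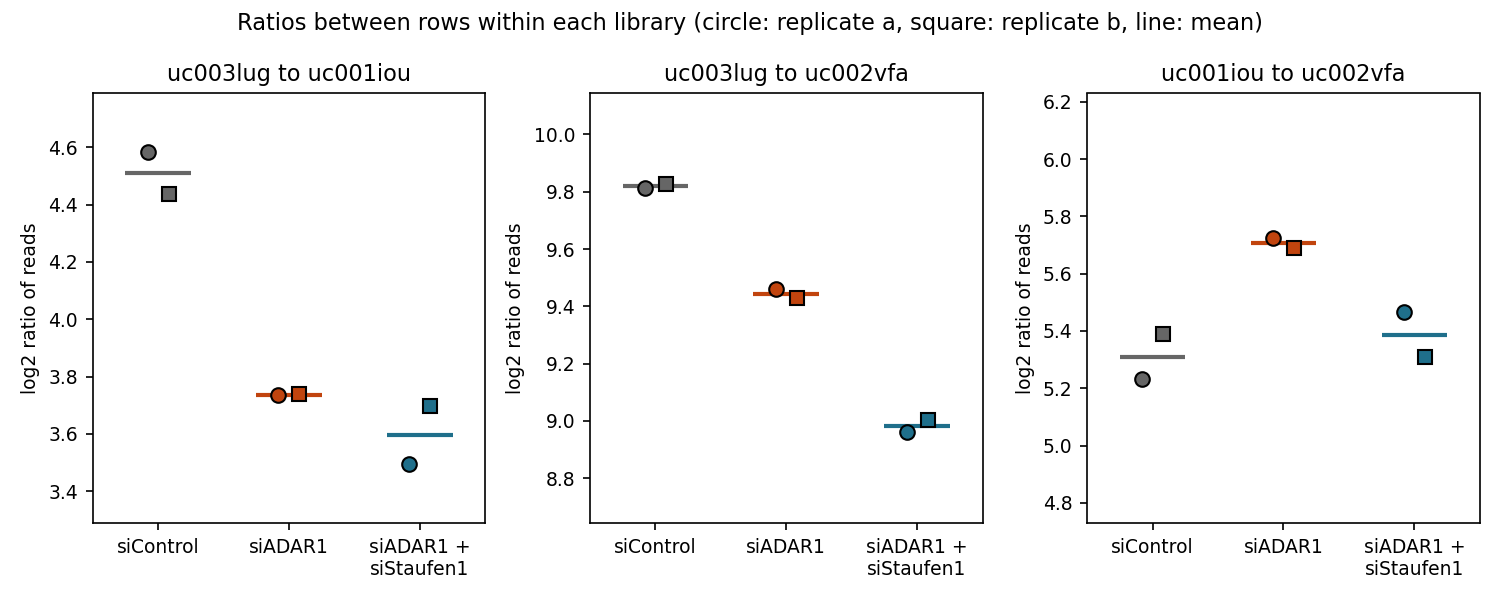
Log2 ratios of reads between pairs of the 3 rows within each library, for siControl, siADAR1 and siADAR1 with siStaufen1; circles are replicate a, squares replicate b, lines group means, and the 3 vertical axes span the same range without starting at 0. The ratio of uc003lug to uc002vfa steps down from 9.82 to 9.44 to 8.98, whereas that of uc001iou to uc002vfa is raised only in siADAR1, at 5.71.

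The 3 rows were then set beside all rows tested. With siADAR1 on the TMM scale, 2 of the 3 fell, uc003lug and uc002vfa, and none rose. Of all rows, 29.7% fell and 32.9% rose by edgeR's quasi-likelihood test at an adjusted p of 0.05. The median log2 fold change of the 3 rows was -0.45, beside 0.04 over all rows. With library totals uc003lug fell, uc001iou rose and uc002vfa did not pass, where 16.4% of all rows fell and 48.2% rose. On the TMM scale the double knockdown against siControl had 1 of the 3 lower, uc003lug, and 1 higher, uc001iou. Of all rows, 25.8% were lower and 28.7% higher. The medians were 0.17 for the 3 rows and 0.02 for all rows. With library totals uc003lug was lower and uc002vfa and uc001iou were higher, where 15.97% of all rows were lower and 39.0% higher. On the TMM scale the double knockdown against siADAR1 had all 3 higher, with the limits of the uc003lug call given above. Of all rows, 21.7% were higher and 21.5% lower. The medians were 0.29 and 0.00106. With library totals uc002vfa and uc001iou were higher and uc003lug did not pass, where 14.95% of all rows were higher and 29.98% lower. When a change beyond 1.5-fold was required on the TMM scale (edgeR glmTreat), the fall of uc003lug with siADAR1 passed. The other 6 TMM calls on the 3 rows did not. These comparisons share libraries pairwise, so the directions of a row in them are not separate pieces of evidence.

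Scaling to library totals shifted the median of all rows by 0.30 for siADAR1 against siControl, by 0.18 for the double knockdown against siControl and by -0.11 for the double knockdown against siADAR1. Such a rescaling moves all rows of a comparison nearly alike, so values taken relative to the median of all rows are the same to 2 decimals by construction. For siADAR1 against siControl these were -0.87 for uc003lug, -0.49 for uc002vfa and -0.09 for uc001iou. For the double knockdown against siControl they were -0.70, 0.14 and 0.22, and against siADAR1 they were 0.15, 0.61 and 0.29.

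**Figure D3:**
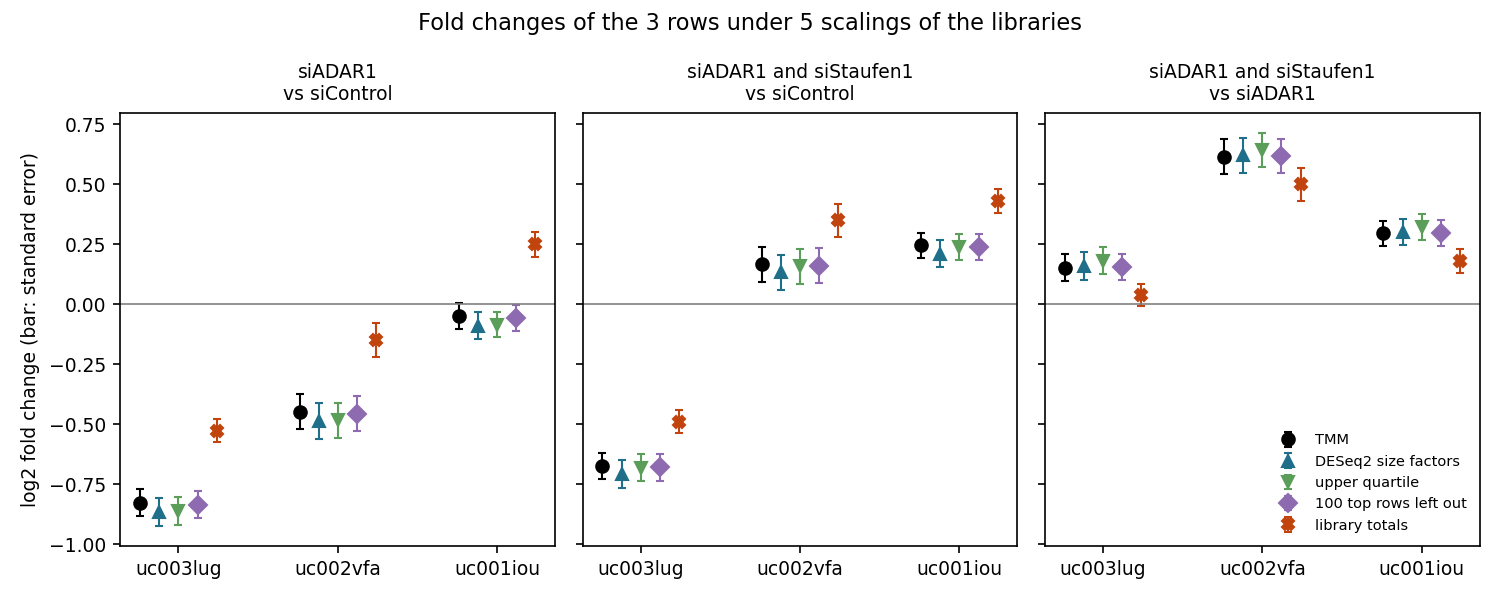
Log2 fold changes of the 3 rows in the 3 comparisons under 5 scalings of the libraries; bars are standard errors and the horizontal line is no change. TMM, DESeq2 size factors, upper-quartile factors and TMM without the 100 most abundant rows lie close together (uc003lug with siADAR1 between -0.87 and -0.83), and library totals stand apart, with uc001iou at 0.25 against -0.05 under TMM for siADAR1 against siControl.

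The rows abundant in siControl shared much of what uc003lug did and little of what uc001iou did with siADAR1. They were chosen for their siControl level, which tilts their changes against siControl towards falls. Of the 100 most abundant rows of siControl, to which uc003lug and uc001iou belong, 91 fell and 2 rose with siADAR1 by edgeR's quasi-likelihood test, with a median log2 fold change of -0.61. There, 24 of the 100 had a lower fold change than uc003lug and 75 a higher one, so its fall was not extreme among them. By contrast, 92 of them had a lower fold change than uc001iou and 7 a higher one. Among the 37 other rows within 0.5 of the average log2 CPM of uc001iou (11.38), the median was -0.57 and 89.2% had a lower fold change.

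In the double knockdown against siControl, 80 of the 100 rows were lower and 8 higher, with a median of -0.40. The same tilt bears on these counts. Here 17 had a lower fold change than uc003lug, and 95 a lower one than uc001iou. Against siADAR1, 73 of the 100 were higher and 6 lower, with a median of 0.24. The values of uc003lug (0.15) and uc001iou (0.29) lay on either side of that median.

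No other row lay within 0.5 log2 CPM of uc003lug, whose average was 15.37. For uc002vfa, with an average of 5.93, there were 1745 such rows. Their median log2 fold change was -0.05 with siADAR1, where 23.1% of them had a lower value than uc002vfa. For the double knockdown against siADAR1 their median was 0.02, and 93.6% had a lower value than uc002vfa. With siADAR1, uc002vfa thus lay below most rows of its abundance, though 23.1% of them were lower still. Its difference between the knockdown groups was larger than that of most of them.

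**Figure D4:**
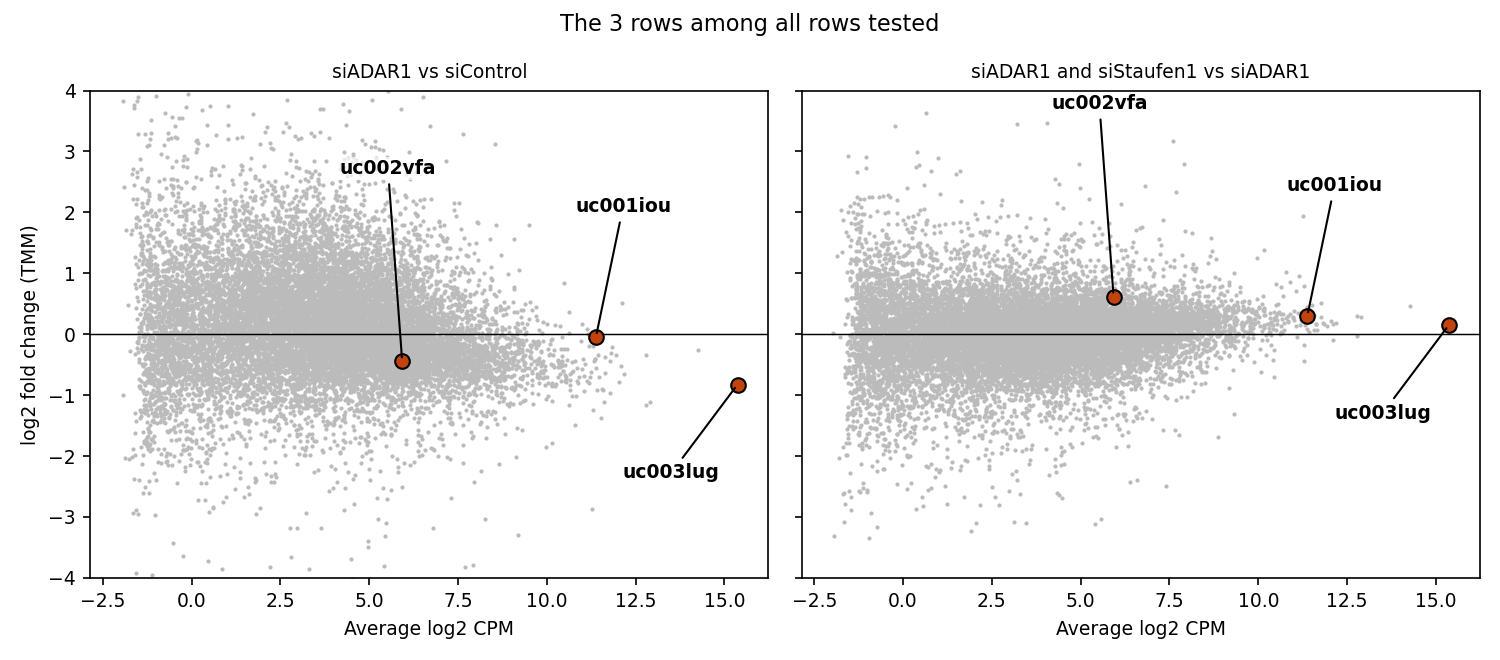
Log2 fold change against average log2 CPM for all 14711 rows tested (grey) and the 3 rows (red), for siADAR1 against siControl (left) and siADAR1 with siStaufen1 against siADAR1 (right), on TMM-scaled counts; 35 and 16 rows lie beyond the vertical axis limit of 4. At left the most abundant rows lie mostly below 0 and uc001iou lies above most rows near its level, with 10.8% of them higher; at right uc002vfa lies above most rows of its level, with 6.42% of them higher.

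Rows with the most similar course over the 6 libraries were sought among the 689 other rows whose average log2 CPM was 8 or more. Similarity was the root mean square difference of log2 TMM CPM taken relative to the siControl mean. The row closest to uc003lug was that of uc001qrk.4, at 0.032. It stood at 557 and 524 CPM in siControl, 299 and 303 CPM in siADAR1, and 330 and 336 CPM in the double knockdown, and 24 rows in all lay within 0.1 of uc003lug. The closest row was thus of far lower abundance, and any match had to be less abundant than uc003lug, the most abundant row.

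The row closest to uc002vfa was that of uc001dqz.4, at 0.059, and 4 rows lay within 0.1. It stood at 816 and 728 CPM in siControl, 526 and 530.2 CPM in siADAR1, and 851 and 855 CPM in the double knockdown. Like uc002vfa, it was lowest in siADAR1. Its siControl replicate b lay below replicate a, which was so of all 3 rows followed and of the row closest to each. The average log2 CPM of uc002vfa was 5.93, so rows of its own level were outside this search. Its larger counting error also enters its distances, so its count of rows within 0.1 is not comparable with those of uc003lug and uc001iou. The row closest to uc001iou was that of uc002rko.3, at 0.061, with 11 rows within 0.1. It stood at 651 and 618 CPM in siControl, 643 and 633 CPM in siADAR1, and 728 and 738 CPM in the double knockdown. These 3 rows were picked for their likeness on the same libraries, so their values are a description.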

How the data were processed

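RNA from 6 libraries of A172 cells was extracted with a miRNeasy kit and sequenced from Lexogen SENSE mRNA V2 libraries, per the labels' protocols. The authors deposited estimated counts (RSEM expected counts for each row of UCSC hg19 transcripts), all whole numbers. RSEM 1.2.3, edgeR and hg19 are named in the submitters' processing notes, with no role given. Not given in the sources used here were the aligner, strand setting and rounding, so reads of antisense partners and of near-identical genes are uncertain.

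The table was used whole: filterByExpr (10 reads, total of 15) kept 14711 of 20514 rows, and edgeR 4.0.16 (TMM, quasi-likelihood F test, 1 mean per group, 3 residual degrees of freedom) in R 4.3.3 tested 3 comparisons with Benjamini-Hochberg adjustment and a threshold of 0.05. The test was checked on simulated data. Standard errors come from the F statistic. Replicates differed by more than counting noise (chi-square per degree of freedom 3.55 to 9.46), so none was taken as a copy of another library, although technical repeats can differ as much. Alternatives were other scalings, no filter, DESeq2 1.42.0, limma 3.58.1 (voom), a replicate block, glmTreat, only the libraries compared and each library left out. Plots used Python 3.11.15 with matplotlib 3.10.9. Depth sets counting error only.

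The 3 rows, and the rule naming 1 most similar row for each, were chosen with earlier results of these data known. A list of 65 matrix, cytoskeleton and receptor symbols and the cell type markers could not be used: the RefSeq table pairs 6 rows with a symbol through its synonyms, none of them listed or among the 3. No promoter or protein sequence is printed for the same reason.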

Additional observations from a re-analysis of the deposited data

How the results depend on the processing

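Of 144 alternative fold changes of the 3 rows, 128 kept their direction and side of the threshold, 13 lost the call, 2 gained it and 1 reversed. With library totals, uc001iou for siADAR1 against siControl turned to 0.25, uc002vfa lost its call at -0.15, uc002vfa in the double knockdown against siControl gained one at 0.35, and uc003lug in the double knockdown against siADAR1 lost it at 0.037. The last was also lost with DESeq2 (0.16). Requiring a change beyond 1.5-fold (edgeR glmTreat), a stricter test by construction, kept only uc003lug with siADAR1: uc002vfa with siADAR1 (-0.45), uc003lug (-0.67) and uc001iou (0.24) in the double knockdown against siControl, and uc003lug (0.15), uc002vfa (0.61) and uc001iou (0.29) against siADAR1 lost the call, and 3603, 2255 and 1019 rows were called in the 3 comparisons, against 9212, 8022 and 6366.

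Leaving out single libraries, with the remaining library of that group assumed to spread as the rest do, uc003lug in the double knockdown against siADAR1 ranged from 0.11 to 0.19 and uc002vfa against siControl from 0.063 to 0.24. With the replicate block, uc003lug with siADAR1 was at -0.83 and 9236 rows were called, and no call of the 3 rows changed. Across rows, deviations from the group means of same-lettered libraries had correlations of 0.051, 0.021 and 0.0060, so the letters were not taken as pairs.

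Shares moved with the denominator. Without the 100 most abundant rows they were 7.48%, 4.79% and 5.06% for uc003lug, 0.00827%, 0.00688% and 0.0100% for uc002vfa, and 0.328%, 0.359% and 0.419% for uc001iou (siControl, siADAR1, double knockdown). Outside the 3 rows they were 3.74% and 3.84% for uc003lug and 0.00536% and 0.00759% for uc002vfa in the knockdown groups, and 0.240% and 0.280% for uc001iou in siControl and siADAR1. The order of the groups kept on both. Depth limits only uc002vfa, whose counts carry a counting error of 2.20% to 2.86%.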
